A study of Mus musculus with 26 samples.

Results

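Hox genes encode homeodomain transcription factors that lie in 4 clusters, Hoxa, Hoxb, Hoxc and Hoxd. The members were taken as every row of the deposited RNA table whose symbol is Hoxa, Hoxb, Hoxc or Hoxd followed by a number, which gave 40 rows and 39 symbols among 37450 rows. Hoxa3 has 2 rows with different gene IDs, and these were kept apart because reads of 1 gene may be split between them. Hoxa has 12 rows, Hoxb 10, Hoxc 9 and Hoxd 9. The numbers of the genes define 13 paralog groups, counted from the rostral to the caudal end.

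Along each cluster the genes are arranged in the order in which they are used along the body axis. Genes with low numbers start expression early and far rostral, in the hindbrain, and genes with high numbers start later and further caudal. In the spinal cord the combination of Hox proteins assigns motor neurons to columns and pools. Hoxa5 and Hoxc5 are used at cervical levels, Hoxc6 and Hoxc8 at the level of the forelimb, Hoxc9 at thoracic levels and the Hox10 genes at the level of the hindlimb. Retinoic acid induces the rostral part of the clusters, through retinoic acid receptors.

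The RNA came from cultures of mouse embryonic stem (ES) cells directed into spinal motor neurons, with 1 ribosome-depleted library on each of days 0, 4, 5 and 6. The day 0 library is untreated ES cells, and the day 4 library is motor neuron progenitors that received retinoic acid (1 uM) together with the Hedgehog pathway agonist SAG (0.25 uM) on day 2. The day 5 and day 6 libraries are cells called postmitotic motor neurons in the labels, which received the same additions and 5 uM DAPT, an inhibitor of Notch signalling, on day 4 (day 5 library) or on days 4 and 5 (day 6 library). The labels assign days 0 and 4 to the HBG3 line and days 5 and 6 to the iCre line. Day, line and DAPT therefore cannot be told apart between days 4 and 5. Another label field names Ainv15 cells for all 4 libraries. The labels name no sorting step, so each library is read as a whole culture.

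The markers of the labelled stages moved with the days. The summed FPKM (fragments per kilobase of gene, scaled to the size of the library) of 4 ES cell markers went from 945.9 on day 0 to 2.33 on day 4. For 4 progenitor markers it was 2.14, 201.4, 40.1 and 9.49 on days 0, 4, 5 and 6, and for 4 motor neuron markers 0.736, 10.3, 156.6 and 155.5. Over all rows, 27.1% to 28.1% reached 1 FPKM in a library. There are no replicates, so no value below has an error and no test was made. The table gives no read totals, so depth is unknown. In whole cultures, fewer cells using a gene and less RNA of it per cell cannot be told apart.

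Promoter sequences are shown for 4 members because group 4 and Hoxb8 carry the contrast between clusters described below: Hoxb4 and Hoxb8 were among the Hox genes that were at least 2-fold lower on day 6 than on day 5, while Hoxc4 and Hoxd4, paralogs of Hoxb4, were not. Each window runs from 250 bases before to 50 bases after the start site, read 5′ to 3′ on the gene's strand, from RefSeq in build GRCm38.p6. The windows are chr11:96318017-96318316 for Hoxb4, chr11:96281655-96281954 for Hoxb8, chr15:103034145-103034444 for Hoxc4 and chr2:74721728-74722027 for Hoxd4, all on the plus strand. Capitals mark matches, on either strand, to AGGTCA (the core motif of nuclear receptors such as the retinoic acid receptors), TGATNNAT (Hox with its partner Pbx), TTTATG (Cdx factors) and TATAAA (the TATA box), and no matches overlap in these 4 windows.
Hoxb4: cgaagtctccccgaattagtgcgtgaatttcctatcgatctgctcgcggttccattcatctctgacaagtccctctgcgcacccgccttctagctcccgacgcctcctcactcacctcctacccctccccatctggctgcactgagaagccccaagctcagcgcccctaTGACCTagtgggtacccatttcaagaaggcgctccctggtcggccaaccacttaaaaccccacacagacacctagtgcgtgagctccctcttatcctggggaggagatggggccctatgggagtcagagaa
Hoxb8: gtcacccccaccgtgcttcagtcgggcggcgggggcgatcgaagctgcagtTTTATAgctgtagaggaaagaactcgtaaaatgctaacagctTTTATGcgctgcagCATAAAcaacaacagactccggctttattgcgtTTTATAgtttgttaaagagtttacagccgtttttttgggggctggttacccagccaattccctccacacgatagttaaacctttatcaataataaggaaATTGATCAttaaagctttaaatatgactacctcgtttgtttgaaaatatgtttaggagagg
Hoxc4: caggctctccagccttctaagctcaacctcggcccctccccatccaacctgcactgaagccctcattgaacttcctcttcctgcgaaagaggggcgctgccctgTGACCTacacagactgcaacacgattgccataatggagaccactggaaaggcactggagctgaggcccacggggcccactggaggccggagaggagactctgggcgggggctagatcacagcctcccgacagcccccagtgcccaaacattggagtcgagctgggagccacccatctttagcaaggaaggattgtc
Hoxd4: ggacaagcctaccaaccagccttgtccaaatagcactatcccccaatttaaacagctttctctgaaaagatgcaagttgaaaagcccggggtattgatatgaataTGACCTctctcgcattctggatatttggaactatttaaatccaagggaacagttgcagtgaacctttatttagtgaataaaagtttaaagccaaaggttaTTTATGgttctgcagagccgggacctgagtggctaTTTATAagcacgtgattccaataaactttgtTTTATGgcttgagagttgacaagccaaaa

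The windows of Hoxb4, Hoxc4 and Hoxd4 each hold 1 match to AGGTCA, all on the minus strand, which begin at positions −81, −146 and −145 from the start site. Hoxb8 holds none in this window, and has 2 matches to TTTATG, 2 to TATAAA and 1 to TGATNNAT. Hoxd4 also has 2 matches to TTTATG and 1 to TATAAA. Among 32851 windows of this length in the table, AGGTCA occurs in 16.3%, TGATNNAT in 8.85%, TTTATG in 11.9% and TATAAA in 13.6%. Of 24 windows of Hox genes, which cover 22 of the 39 symbols, 7, 4, 5 and 4 hold these motifs.

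ES cells on day 0 had no Hox gene at 1 FPKM. The highest was Hoxd8 at 0.359 FPKM, and 10 rows were listed at 0. By day 4, 18 rows of 17 symbols had reached 1 FPKM, with 19 rows on day 5 and 19 on day 6. In all, 20 rows of 19 symbols reached 1 FPKM on some day and the other 20 rows never did. The first 5 groups hold most of the expressed genes: 7 of 9 rows of groups 1 to 3 and all 7 genes of groups 4 and 5 were at 1 FPKM or more on day 4, against 4 of 24 rows of groups 6 to 13.

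**Figure D1:**
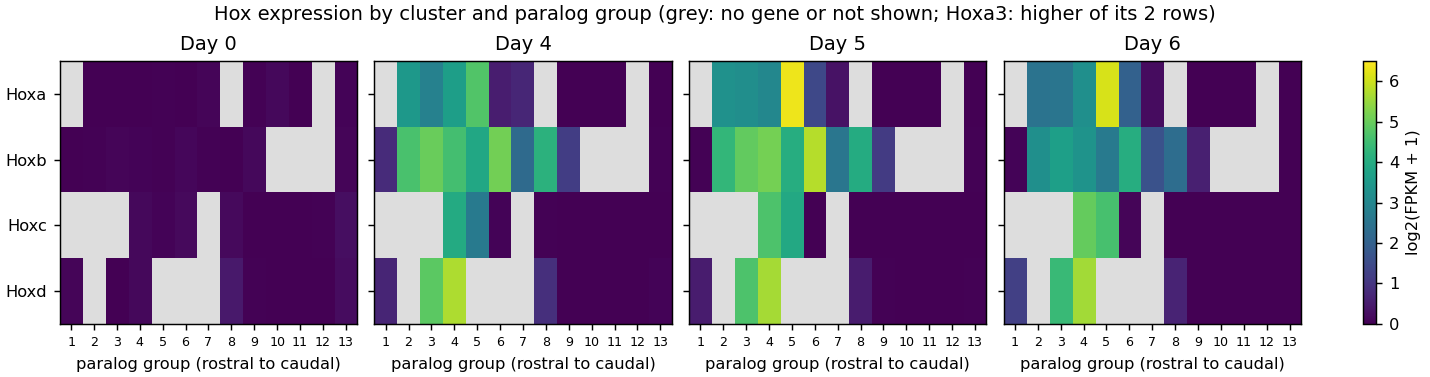
Expression of the Hox genes as log2(FPKM + 1), by cluster (rows) and paralog group (columns), with 1 panel for each day and 1 library for each panel (grey, no gene or not shown). Day 0 is dark throughout, with no value above 0.359 FPKM, and from day 4 on the signal lies in groups 1 to 9, ending at group 5 in Hoxc and at group 4 in Hoxd when read at 1 FPKM.

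The caudal limit, read as the highest group with a member at 1 FPKM or more, differed between the clusters. It was group 9 in Hoxb on days 4 and 5 and group 8 on day 6. In Hoxa it was group 5 on day 4 and group 6 on days 5 and 6. In Hoxc it was group 5 and in Hoxd group 4 on all 3 days. The limits of Hoxa, Hoxb and Hoxd depend on the threshold. With 0.5 FPKM in place of 1, the limit of Hoxd was group 8 on days 4 and 6, through Hoxd8 at 0.831 and 0.574 FPKM, and that of Hoxa was group 7 on day 4. Near 1 FPKM, Hoxb9 stood at 1.27, 1.20 and 0.473 FPKM on days 4, 5 and 6, and Hoxa6, used at forelimb levels, at 0.428, 1.67 and 3.06 FPKM. On day 0 they stood at 0.111 and 0.0149 FPKM. At 5 FPKM the limit of Hoxa was group 5 on all 3 days, and that of Hoxb was group 8 on days 4 and 5 and group 6 on day 6.

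The end of Hoxc expression was the steepest on day 6. Hoxc5, which acts with Hoxa5 in motor neurons of the phrenic nerve, stood at 0.0391, 5.36, 14.1 and 23.5 FPKM on days 0, 4, 5 and 6. Hoxc6, the next gene and a determinant of forelimb motor neurons, stood at 0.111, 0.0523, 0 and 0.0723 FPKM. Hoxc5 was thus 102.4 times the level of Hoxc6 on day 4 and 325.2 times on day 6, and it was higher on each later day while Hoxc6 was not above its day 0 value on any of them. In Hoxd the step fell between Hoxd4 and Hoxd8, a ratio of 61.8 on day 4, 119.0 on day 5 and 82.9 on day 6. Hoxd8 itself stood at 0.359, 0.831, 0.404 and 0.574 FPKM, always under the threshold. In Hoxa, Hoxa5 was 60.2 times Hoxa6 on day 4, and from day 5 Hoxa6 was the last gene, at 6.60 and 18.4 times the level of Hoxa7. Hoxa7 stood at 0.623, 0.253 and 0.167 FPKM on days 4, 5 and 6, and the caudal end of Hoxb beyond Hoxb9, Hoxb13, did not pass 0.0695 FPKM.

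Most caudal Hox genes, among them those that define thoracic and lumbar motor neurons, were near or at 0. Hoxc9, Hoxc10, Hoxa11 and Hoxd12 were listed at 0 in all 4 libraries. Of the 16 rows of groups 9 to 13, 12 were listed at 0 on all of days 4, 5 and 6. The exception was Hoxb9, at up to 1.27 FPKM, and in groups 10 to 13 the highest value of those days was 0.0414 FPKM (Hoxd13 on day 4). Hoxc8, used in forelimb motor pools, had 0.129 FPKM in ES cells, 0.0330 in the day 4 progenitors and 0 later. On day 0, by contrast, 12 of these 16 rows were above 0, up to 0.182 FPKM (Hoxc13), and 51.2% of all rows were above 0, against 46.0%, 45.1% and 46.7% on days 4, 5 and 6. Because an exact 0 in such a table may be an estimate that failed, no fold is given against it.

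At the rostral end, Hoxb1, which specifies facial motor neurons, stood at 0, 0.735, 0.0180 and 0.0459 FPKM on days 0, 4, 5 and 6, under 1 FPKM throughout. Hoxd1 stood at 0.0594, 0.604, 0.411 and 1.35 FPKM and passed 1 FPKM on day 6.

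From day 0 to day 4 all 18 measured rows (1 FPKM or more in either library) were at least 2-fold higher and none was lower, with a median difference of 4.01 in log2(FPKM + 1). Over all 11482 genes measured, 19.3% were 2-fold higher and 11.9% lower, and the median difference was 0.23. Since every Hox gene lay below 1 FPKM on day 0, only members that were high on day 4 entered this count, which therefore says nothing of the other 22. The levels reached show more. Hoxd4 led at 51.4 FPKM, followed by Hoxb6 (33.4), Hoxb3 (31.4), Hoxd3 (27.9), Hoxa5 (25.8), Hoxb2 (23.8) and Hoxb4 (22.4). Hoxb8, a gene of forelimb and upper thoracic levels, reached 17.0 FPKM, while the gene beside it, Hoxb7, reached 3.72.

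From day 4 to day 5, 3 of 19 measured rows were at least 2-fold higher and none was lower, against 11.5% higher and 14.7% lower over all genes. Hoxa5, at 0.0279, 25.8, 80.0 and 67.9 FPKM on days 0, 4, 5 and 6, had the largest difference of this step, 1.60 in log2(FPKM + 1), and was the highest Hox gene on days 5 and 6. Hoxc5 differed by 1.25 and 1 row of Hoxa3 (ENSMUSG00000059723) by 1.16, with 0, 1.19, 3.89 and 1.99 FPKM on the 4 days. The other Hoxa3 row (ENSMUSG00000079560) had 0, 6.26, 8.23 and 4.73 FPKM and was within 2-fold on day 5, so the call does not extend to the gene as a whole. The RefSeq gene models of Hoxa3 and Hoxa5 overlap, so the calls of these genes may not be separate. Hoxa6 had the largest FPKM ratio, 3.90, but from a low level, and its difference of 0.90 missed 2-fold, while with a pseudocount of 0.1 FPKM it was 1.74 and was called. Hoxa4, next to Hoxa5, went from 11.5 to 7.03 FPKM, within 2-fold. The Hoxa5 to Hoxa4 ratio, which does not depend on how a library is scaled, was 2.24 on day 4, 11.4 on day 5 and 8.02 on day 6. This step also holds the change from HBG3 to iCre and the addition of DAPT. Over it the progenitor markers were lower in 3 of 4 cases and the motor neuron markers higher in 4 of 4. The part of these in the Hox differences was not tested.

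**Figure D2:**
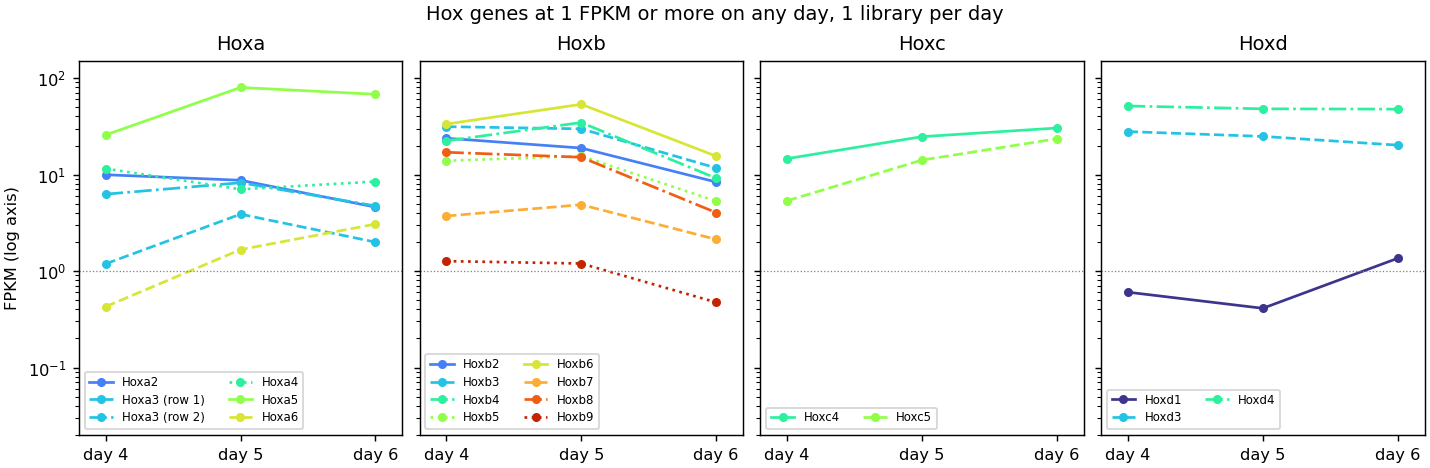
FPKM on a log axis on days 4, 5 and 6 for 19 of the 20 Hox rows that reached 1 FPKM on any day, with 1 panel for each cluster, 1 line for each row and 1 library for each day. The dotted line marks 1 FPKM. All 8 Hoxb lines go down from day 5 to day 6, with ratios from 0.265 to 0.445, while Hoxc4 and Hoxc5 go up and Hoxd4 stays near 48 FPKM.

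Between days 5 and 6, within the iCre line, the Hoxb genes had the lowest ratios among the measured Hox genes. All 8 measured Hoxb genes had a lower FPKM on day 6, at 0.265 to 0.445 of their day 5 value. The 7 measured Hoxa rows had ratios of 0.513 to 1.84, Hoxc4 and Hoxc5 1.23 and 1.66, and the 3 Hoxd genes 0.812 to 3.30, so no gene of another cluster fell within the range of Hoxb. The gap was narrow at the rostral end of Hoxa. There the 2 Hoxa3 rows had 0.513 and 0.575 and Hoxa2 0.527, beside 0.445 for Hoxb2, while 2 of the 7 Hoxa rows were above 1. The order of these ratios is the same under any scaling of the libraries. On the log2(FPKM + 1) scale 6 of 20 measured Hox rows were at least 2-fold lower, all 6 of them Hoxb, and none was higher, against 6.19% lower and 6.57% higher over all genes. The median difference was −1.33 for the 8 Hoxb genes, −0.24 for Hoxa, 0.49 for Hoxc and −0.01 for Hoxd, beside −0.07 over all 11164 genes measured. Bringing the libraries to equal median ratios raises this step by 0.15. The Hoxa median was then −0.11, that of Hoxd turned to 0.13, and Hoxb2 was within 2-fold, which left 5 Hoxb genes lower.

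The Hoxb genes that were lower span the cluster. Hoxb2, a hindbrain gene, stood at 0.0307, 23.8, 18.8 and 8.37 FPKM on days 0, 4, 5 and 6, and Hoxb3 at 0.0575, 31.4, 29.8 and 11.7. Hoxb4 stood at 0.0468, 22.4, 34.6 and 9.16 FPKM, and its difference from day 5 to day 6, −1.81 in log2(FPKM + 1), was the largest of any Hox gene. Both Hoxb4 and Hoxb6 were highest on day 5, whereas Hoxb2, Hoxb3 and Hoxb8 were highest on day 4. Hoxb5 stood at 0.0270, 13.9, 15.6 and 5.30 FPKM. Hoxb6 stood at 0.0910, 33.4, 53.5 and 15.5 FPKM, and Hoxb8 at 0, 17.0, 15.1 and 4.03. Every one of these 6 genes was at its lowest level since day 0 on day 6. The 2 others missed 2-fold on this scale, Hoxb7 at 3.72, 4.87 and 2.13 FPKM and Hoxb9 at 1.27, 1.20 and 0.473 FPKM on days 4, 5 and 6. With a pseudocount of 0.1 FPKM in place of 1, all 8 were called lower, and Hoxd1, at 0.411 and then 1.35 FPKM, was called higher.

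**Figure D3:**
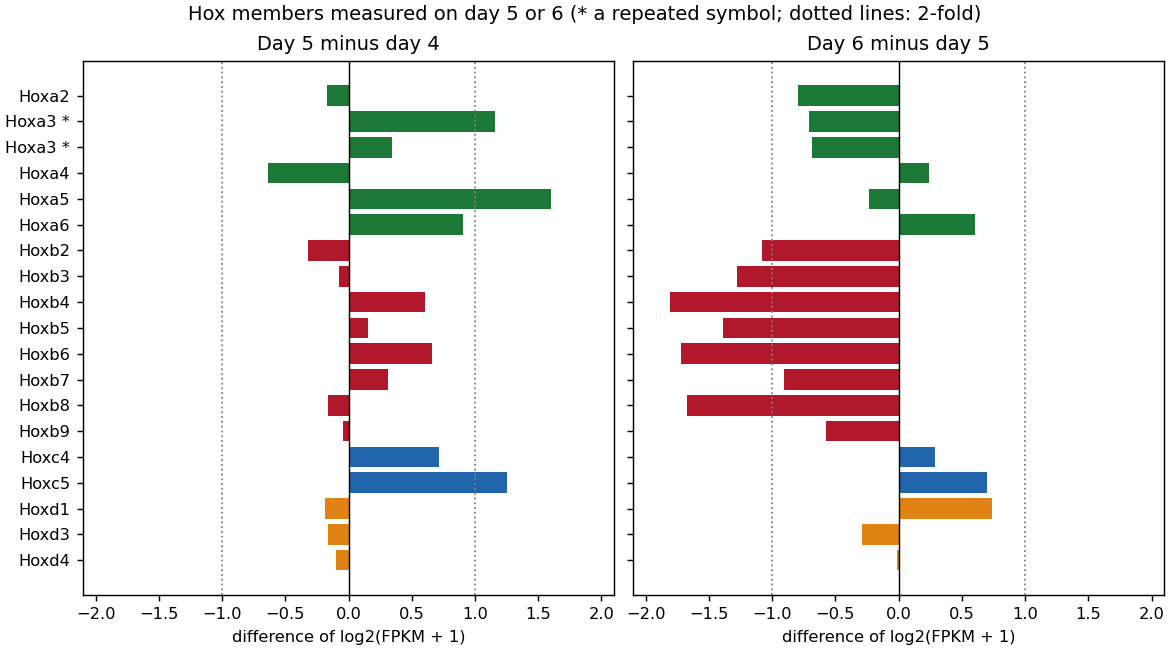
Differences in log2(FPKM + 1) for 19 of the 20 Hox rows at 1 FPKM or more on day 5 or 6, day 5 minus day 4 on the left and day 6 minus day 5 on the right, coloured by cluster (Hoxa green, Hoxb red, Hoxc blue, Hoxd orange), from 1 library for each day. The dotted lines mark 2-fold: on the right 6 Hoxb bars pass it downward and no other bar does, and on the left Hoxa5, Hoxc5 and 1 of the 2 Hoxa3 rows pass it upward (Hoxd1 was under 1 FPKM on both of those days).

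Ratios between paralogs differed over the same days. In group 4, Hoxd4 was nearly level after day 4, at 0.103, 51.4, 48.0 and 47.6 FPKM on days 0, 4, 5 and 6, and Hoxc4 stood at 0.0959, 14.6, 24.7 and 30.4. Hoxc4 was 0.714 times the level of Hoxb4 on day 5 and 3.31 times on day 6, and Hoxd4 went from 1.39 to 5.20 times. Hoxa4, at 0.0173, 11.5, 7.03 and 8.46 FPKM on days 0, 4, 5 and 6, went from 0.203 to 0.924 times the level of Hoxb4. In group 5, Hoxa5 was 1.85, 5.14 and 12.8 times the level of Hoxb5 on days 4, 5 and 6, and Hoxc5 0.385, 0.909 and 4.43 times. In group 3, Hoxd3 stood at 0, 27.9, 24.9 and 20.2 FPKM on the 4 days and went from day 5 to day 6 from 0.835 to 1.72 times Hoxb3. In group 2 the shift was small: Hoxa2, at 9.95, 8.73 and 4.60 FPKM, was 0.418, 0.464 and 0.549 times Hoxb2. These ratios are between FPKM values of 1 library, so its scaling cancels. A split of reads between overlapping gene models, described below, does not cancel. Apart from Hoxa2 to Hoxb2 and Hoxc5 to Hoxb5, each ratio uses at least 1 gene whose model overlaps that of a neighbour.

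Summed over the 38 symbols with a single row, Hox FPKM was 316.8, 400.9 and 279.1 on days 4, 5 and 6. Hoxb held 46.6% of it on day 4, 43.3% on day 5 and 20.3% on day 6, and Hoxc 6.33%, 9.69% and 19.3%. Hoxa held 21.6%, 28.7% and 35.3%, and Hoxd 25.5%, 18.4% and 25.0%. By paralog group, groups 1 to 3 together held 36.1%, 24.9% and 21.7%, groups 4 and 5 held 45.7%, 55.9% and 68.9%, and groups 6 to 13 held 18.1%, 19.2% and 9.33%. The mean group number weighted by FPKM was 4.04, 4.35 and 4.20. Its small range over the days hides opposite shifts, as both the rostral and the caudal groups lost share to groups 4 and 5 by day 6. This gain from day 5 to day 6 was in share only. Group 4 went from 114.4 to 95.6 FPKM summed and group 5 from 109.6 to 96.7, while the other groups together fell by a larger factor.

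**Figure D4:**
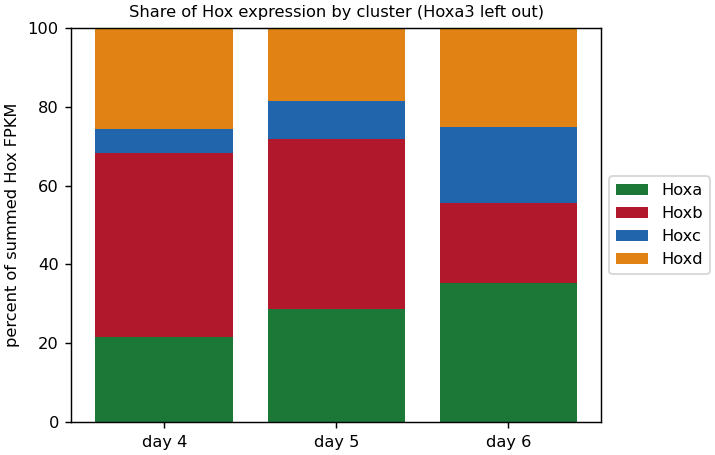
Share of the summed FPKM of the Hox genes with a single row that each cluster held on days 4, 5 and 6, in percent, with 1 library for each bar. The Hoxb part (red) goes from 43.3% on day 5 to 20.3% on day 6, and the Hoxc part (blue) from 9.69% to 19.3%.

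Some neighbouring Hox genes have gene models that overlap, by the RefSeq table of build GRCm38.p6, so their reads may be split in a way that is not stated. The pairs are Hoxa3 with Hoxa4, Hoxa5 and Hoxa6, Hoxb3 with Hoxb4, Hoxd3 with Hoxd4, and Hoxd10 with Hoxd11. Of the Hoxb genes that were lower on day 6, Hoxb2, Hoxb5, Hoxb6 and Hoxb8 are in no such pair in this build. The gene models used for counting were not seen. The part of overlap in the Hoxb result and in the ratios between Hox genes was not tested. Nor was its part in the day 5 calls of Hoxa3 and Hoxa5. The antisense transcript Hoxb3os stood at 0, 1.95, 0.858 and 0.214 FPKM on days 0, 4, 5 and 6. The labels do not say whether counting used the strand, so its reads and those of Hoxb genes may be mixed. Evx1, the homeobox gene at the caudal end of Hoxa, did not pass 0.0482 FPKM, and 6 microRNA genes of the clusters were listed at 0 throughout. Such a 0 may be an estimate that failed, so it does not show that these microRNA genes were silent.

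Markers along the body axis placed other regions beside the Hox code. Of 11 rostral brain genes in the table none reached 1 FPKM from day 4 on, though the highest lay just under it on day 4. Otx2, a forebrain and midbrain factor, was at 1.97 FPKM on day 0 and at 0, 0.0341 and 0 later. Of 9 genes of hindbrain segments and cranial motor neurons, 2, 2, 5 and 6 reached 1 FPKM on days 0, 4, 5 and 6. Tbx20, a factor of cranial motor neurons, went from 2.41 FPKM on day 5 to 10.4 on day 6. This list summed to 19.7, 10.6, 58.4 and 55.6 FPKM on days 0, 4, 5 and 6, so its sum was higher in ES cells than in the day 4 progenitors. Egr2, which marks hindbrain segments, did not pass 0.0439 FPKM on those days.

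Paraxial mesoderm, which also uses Hox genes, was represented by 5 markers, with summed levels of 0.960, 2.50 and 0.403 FPKM on days 4, 5 and 6. Msgn1 was listed at 0 on all 3 days and Tbx6 did not pass 0.0927 FPKM. Tcf15 was the one member at 1 FPKM, at 2.27 on day 5. From day 5 to day 6, where the Hoxb genes were lower, the 4 progenitor markers were all at least 2-fold lower as well (40.1 to 9.49 FPKM summed), led by Olig2, the progenitor factor of motor neurons (17.3 to 0.950). Of 4 motor neuron markers 1 was lower at this step, and over all genes 6.19% were. Their part in the Hoxb result was not tested. Summed markers of neural crest, limb mesoderm and blood did not pass 1.26 FPKM from day 4 on, those of glia stood at 7.48, 13.95 and 11.04 FPKM on days 4, 5 and 6, and those of endoderm at 5.78, 4.30 and 5.80. The last 2 sums rest on few members. Of 5 glia markers 2, 2 and 1 reached 1 FPKM on these days, and of 5 endoderm markers 2, 1 and 2. Gdf11, a growth factor that shifts the Hox code caudally in the spinal cord, stood at 0.491, 6.63, 31.9 and 13.9 FPKM on days 0, 4, 5 and 6. It belongs to a list of 11 posterior and mesodermal genes, of which 1, 2 and 2 reached 1 FPKM on days 4, 5 and 6.

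Partners of Hox proteins were mostly higher on day 4 than in ES cells and then differed among themselves. Of 9 genes of the Pbx, Meis and Pknox families, whose products bind DNA together with Hox proteins, day 4 had 8 that were higher by 2-fold or more, and day 5 had 4 higher and 2 lower, beside 19.3% of all genes higher on day 4, and 11.5% higher and 14.7% lower on day 5. Meis1 stood at 0.469, 32.9, 80.7 and 96.5 FPKM on days 0, 4, 5 and 6, and Meis2 at 0.107, 23.0, 49.5 and 73.7. On day 6 Pbx3 was the 1 member at least 2-fold higher (34.5 to 70.7 FPKM) and none was lower, beside 6.57% and 6.19% of all genes, while Pknox2 had gone from 7.22 FPKM on day 4 to 2.18 and 0.833. Pbx4 stood at 1.06, 3.63, 1.09 and 1.60 FPKM, so it was back near its ES cell level on day 5. Summed, the family stood at 152.9, 274.6 and 345.2 FPKM on days 4, 5 and 6.

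Among inducers of Hox genes, the receptors and the Cdx factors differed. The retinoic acid receptor Rarb stood at 0.0916, 19.5, 17.5 and 21.4 FPKM on days 0, 4, 5 and 6. Rarg went from 10.3 FPKM on day 0 to 0.519 on day 4. Cdx1, Cdx2 and Cdx4, which activate the central Hox genes in the growing trunk, were near or at 0 from day 4 on: Cdx2 and Cdx4 were listed at 0 and Cdx1 stood at 0.0536 FPKM on day 4. Of the 9 genes, 5, 4, 5 and 6 reached 1 FPKM on days 0, 4, 5 and 6. From day 5 to day 6 Rxrg went from 1.86 to 6.95 FPKM and Rara from 12.5 to 5.54.

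Chromatin regulators known to act on the clusters differed in both directions. Of 15 Polycomb genes, whose products keep Hox genes silent, 6 were at least 2-fold lower and 5 higher on day 4, beside 11.9% and 19.3% of all genes. Jarid2 went from 63.1 to 6.52 FPKM and Cbx7 from 29.3 to 4.54, while Bmi1 went from 1.04 to 14.7 and Ring1 from 1.44 to 12.5. From day 4 to day 5, 4 were lower (Pcgf2, Ring1, Eed and Cbx2) and 1 higher (Jarid2), beside 14.7% and 11.5% of all genes. A further list of 10 genes in the table held Trithorax and demethylase genes, which act to keep genes active, and also Ctcf. Of these, 3 were higher and 1 lower on day 4 and none differed by 2-fold on day 5. From day 5 to day 6 no gene of either list differed by 2-fold, a step at which 6.57% of all genes were higher and 6.19% lower. Ctcf, whose protein binds boundaries within the clusters, stood at 20.6, 23.7, 14.3 and 7.98 FPKM on days 0, 4, 5 and 6.

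Genes used in motor neuron columns and pools, some of which depend on Hox input, were present in part. Foxp1, which forms limb motor neurons together with Hox proteins, stood at 3.97, 18.8, 23.1 and 15.2 FPKM on days 0, 4, 5 and 6. Aldh1a2, the retinoic acid synthase of limb motor neurons, went from 0.875 FPKM on day 5 to 33.4 on day 6. Etv4, a factor of limb motor pools, stood at 13.3 FPKM on day 0 and between 0.139 and 0.788 afterwards. Of 9 such genes in the table, 3, 4, 5 and 7 reached 1 FPKM on days 0, 4, 5 and 6, and no Hox gene did on day 0. The list shares a gene with the progenitor markers, and whether its levels depended on Hox genes was not tested.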

How the data were processed

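Mouse RNA of days 0, 4, 5 and 6 was analysed, 1 library per day, 4 of the 26 samples of the series. The table deposited by the authors holds FPKM per gene ID. The submitters' processing notes name STAR, Bowtie 0.12.7, HOMER 4.7.2 and MACS and the build mm9, with no role for each, and no source used here says which program computed the values. Peak lists were not used here, because they give mm9 positions without gene names. Days were compared on the log2(FPKM + 1) scale, where changes of low genes appear smaller than they are. A gene was measured if either library of the pair had at least 1 FPKM, and a difference of 1 (2-fold) was called. With no replicates there is no test. Rescaling used median ratios over 8244 genes at 1 FPKM or more in all 4 libraries and shifts the 3 steps by −0.26, 0.15 and 0.15 in log2. Python 3.11.15 and pandas 2.3.3 were used. The code of the calls was checked on simulated large changes without noise, which does not test differences near 2-fold or low levels. Of the 40 gene IDs, 38 were found in the current table of gene names. Named are members at 10 FPKM or more, members differing 2-fold after day 4, and genes at the limits of expression, with some further members named after their values were seen. From the other lists, genes at 1 FPKM that differ 2-fold and defining markers near 0 are named, with further genes named after their values were seen. Members and lists were chosen with earlier results of these data known. Values of 1 Hox gene and of some other listed genes are not reported here, though counts and sums include them.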

Additional observations from a re-analysis of the deposited data

How the results depend on the processing

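Pseudocounts, filters, thresholds and library scaling were varied. Of the Hox genes, 18 were higher on day 4 than on day 0 and 15 to 18 under the alternatives. No Hox gene reached 1 FPKM on day 0, so only members that were high on day 4 could enter this count. From day 4 to day 5, 3 rows were higher, with 4 at a pseudocount of 0.1 FPKM (Hoxa6 added), 1 at a pseudocount of 5 FPKM, and 2 or 3 under the others. From day 5 to day 6, 6 Hoxb genes were lower and 4 to 8 under the alternatives, and no Hox gene was higher, except 1 (Hoxd1) with a pseudocount of 0.1 FPKM. On day 6, 19 rows reached 1 FPKM and 12 reached 5 FPKM. No caudal limit existed on day 0 at 0.5, 1 or 5 FPKM. At 0.5 FPKM the caudal limit of Hoxa on day 4 was group 7, and that of Hoxd on days 4 and 6 was group 8. Peak counts at Hox genes, and the variants that leave out a day 4 H3K27ac library, were not run. No paired analysis was possible because each day has 1 RNA library. With 1 library per day and unknown depth, differences near 2-fold and levels near 1 FPKM are the least certain.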
